A study of Mus musculus with 32 samples.

Results

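Keratins are the intermediate filament proteins of epithelial cells. On this mouse array 52 of 34821 gene names, on 68 of 55681 probes, were made of Krt and a number, and all of them were taken, whatever their values. Keratin-associated proteins (Krtap) were left out. The levels were followed in 8 groups of 4 samples each. Endothelial, Ito and Kupffer cells were isolated from the livers of healthy control Balb/c mice inoculated with PBS and, as cells of the tumor microenvironment (TME), from the livers of Balb/c mice 14 days after C26 colon carcinoma cells had been injected into the spleen. The other 2 groups were cells of the CRC primary tumor (TP) and of the tumor liver metastasis (TM). The mice were males of 6 to 8 weeks, and all tumor cells descended from C26, a single line that is syngeneic with the strain. Liver cells were separated by density gradients and adherence, then kept in culture for at most 24 hours. The endothelial cells line the sinusoids, Kupffer cells are liver macrophages, and Ito cells store vitamin A and can turn into myofibroblasts.

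A keratin filament is built from pairs of one acidic type I and one basic type II chain. In the mouse, the type I genes lie together on chromosome 11 and the type II genes, with the type I gene Krt18, on chromosome 15. Simple epithelia use Krt8 and Krt18, often with Krt19, Krt7 or Krt20. Stratified epithelia use Krt5 and Krt14 in the basal layer and Krt1 and Krt10 above it, and a large set serves hair and its root sheath. Hepatocytes hold only the pair Krt8 and Krt18, bile duct cells add Krt7 and Krt19, and Krt20 marks the differentiated epithelium of the gut. Endothelial cells, macrophages and stellate cells rely on vimentin, another intermediate filament protein. Of the 68 probes, 36 mapped to chromosome 11 and 31 to chromosome 15, and 1 Krt85 probe had no position.

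The level of a probe is the log2 of its intensity in the authors' deposited table, so that a difference of 1 means a doubling. Each array carried 2 samples in 2 dyes. Control and TM samples were in Cy3 and TME and TP samples in Cy5, without a dye swap, so dye and TME state cannot be told apart, nor can dye and tumor site. Kupffer and tumor samples shared a slide, and endothelial and Ito samples shared the other. TM against control Kupffer cells and TP against TME Kupffer cells were therefore comparisons within a slide and a dye. Calls, higher or lower, were made at a limma adjusted p under 0.05, with Benjamini-Hochberg adjustment over all 55681 probes. Nothing in the labels ties a sample to an animal, so p-values measure the spread between samples.

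Some whole arrays stood apart. Over 17113 probes that were detected above background in every channel, the TME minus control difference of Ito array 4 correlated at r = -0.66 with the mean of the other Ito arrays, and that of Kupffer array 4 at r = -0.6 with its group, so the libraries labelled with these numbers went against the rest and the direction of these arrays is not settled. TME Ito replicate 2 had a summed Kupffer marker level of 14.45 on the log2 scale, against 16.55 to 18.41 in the other TME Ito samples. Markers of other cells were detected in each fraction, which does not measure how pure it was. All 9 endothelial and all 8 Kupffer markers were well above background on all 4 arrays of each liver cell group, and 10 or 11 of 12 hepatocyte markers were so too. Of 9 Ito markers, 8 were so in both endothelial groups and control Ito cells, and 7 in TME Ito and both Kupffer groups. Summed Ito markers were 17.95 to 18.34 in control endothelial and 17.05 to 18.15 in control Ito cells. Their median difference, endothelial minus Ito, was 1.09 in controls and 0.38 in TME, with 0 of 9 called. In TM and TP, none of the 12 hepatocyte markers was well above background on all 4 arrays. Of 8 colon epithelium markers, 2 were well above background on all 4 arrays of TM and 2 on those of TP, as were 2 in control Ito and TME Kupffer cells and 1 in each other liver cell group. The TP minus TM differences of tumor arrays 1 and 4 correlated at -0.2 and -0.067 with the mean of the other tumor arrays, and those of arrays 2 and 3 at 0.64 and 0.63.

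The probes on which the results turned are shown by their first 30 bases of 60, 5′ to 3′, as the array files give them, because the probe and not the whole transcript is what was measured. Positions are in mm9.
Krt20, chr11:99289776-99289835, minus strand: ataagaacacagcacaaggtgattgacatg
Krt18, chr15:101862341-101862400, plus strand: ggatggcagagtggtgtccgagactaatga
Krt8, chr15:101827138-101827197, minus strand: ccatccaaacccaattcagttgtattttct
Krt23, chr11:99339393-99339452, minus strand: tccgcgctaatgggtgagtctcgacggaaa
Krt79, chr15:101759764-101759823, minus strand: acggtcaagtccctgtctgtgcctgtgatg
Krt222, chr11:99095480-99095539, minus strand: ttgttgaaagttaaaggttgtacacacaca

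Of the 68 probes, 21 (for 19 genes) were well above background in a full group of 4 arrays or in several such groups. Another 14 were so in some channels only, and 33 in none of the 32. Just 8 were well above background in every channel. The detected probes were 4 of 6 for simple epithelial keratins, 9 of 28 for stratified ones, 7 of 30 for hair and root sheath and 1 of 4 for Krt222 and Krt42. The number of probes well above background on all 4 arrays was 18 in control endothelial, 17 in TME endothelial, 17 in control Ito, 14 in TME Ito, and 18 in both Kupffer groups. It was 14 in TM and 12 in TP. Of all 55681 probes, 29033 passed a filter for being well above background in a group, and 17113 were so in every channel. Whether keratins differ from all probes in these shares was not tested.

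**Figure D1:**
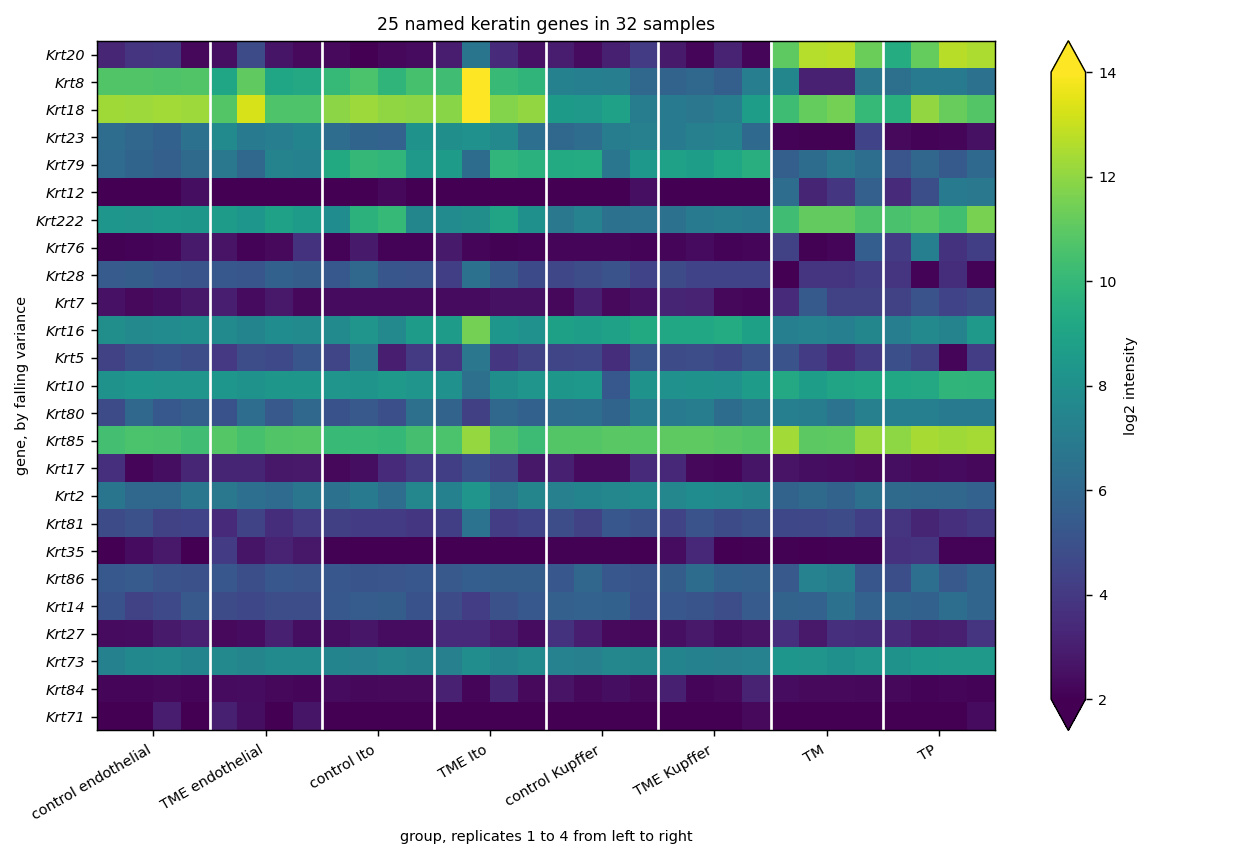
Log2 levels of 25 named keratin genes (rows, by falling variance) in the 32 samples (columns, in groups of 4). Krt20 is bright in the 8 tumor samples and dark in nearly all liver cell samples, Krt23 shows the reverse, and TME Ito replicate 2 is the brightest column for Krt18 (16.84) and Krt8 (15.13).

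Krt20, the type I keratin of differentiated gut epithelium, separated tumor from liver cells. In TM its log2 levels were 11.01, 12.68, 12.75 and 11.32, and in TP 9.42, 11.17, 12.71 and 12.51. Among the 24 liver cell samples the levels ran from 1.98 to 6.65, and only TME endothelial replicate 2 (4.76) and TME Ito replicate 2 (6.65) were well above background. The lowest tumor sample thus lay above the highest liver cell sample. In bulk RNA, fewer cells of a type and less RNA per cell cannot be told apart. TM exceeded control Kupffer cells by 8.84 ± 0.74 (SE, n = 4 per group, limma adjusted p 9.56e-11), and TP exceeded TME Kupffer cells by 8.84 ± 0.74 (limma adjusted p 8.18e-11). The Kupffer cells were not well above background for this probe, so the rise was at least 48.6-fold in TM and at least 38.7-fold in TP. These bounds set the tumor mean against the higher, on each array, of the Kupffer level and the lowest signal well above background. They and the later bounds of this kind were computed with another normalization than the levels and differences. It used normexp background correction, loess within arrays and quantile normalization of mean intensities between arrays.

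Krt18 and Krt8 form the basic pair of simple epithelia, and they did not move together in the tumors. Krt18 was well above background in all 32 channels. Its log2 levels were 10.26, 11.16, 11.51 and 10.04 in TM and 9.6, 12.05, 11.2 and 10.77 in TP. In control Kupffer cells they were 8.53, 8.5, 8.85 and 7.03, and in TME Kupffer cells 6.98, 6.78, 7.02 and 8.74. Each tumor group lay wholly above its Kupffer group. The difference was 2.52 ± 0.79 for TM (SE, limma adjusted p 0.0116) and 3.53 ± 0.79 for TP (limma adjusted p 0.000546). Endothelial and Ito cells held as much Krt18 as the tumors or more, with means of 12.27 in control endothelial, 12.02 in control Ito, 11.36 in TME endothelial and 13.13 in TME Ito cells. Against all liver cells the tumors were therefore not called different for Krt18 (0.09 ± 0.46, limma adjusted p 0.882).

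Krt8, the type II partner, was low in tumors. Its levels were 7.51, 3.1, 3.1 and 6.75 in TM and 6.41, 6.93, 6.88 and 6.49 in TP. TM replicates 2 and 3 were not above background, while all 4 TP samples were. TM replicates 1 and 4 also differed from 2 and 3 in the collagen gene Col1a1 (12.29, 7.7, 7.45 and 12.31 in replicates 1 to 4) and the macrophage gene Emr1 (8.77, 3.13, 2.24 and 8.69). Desmin (Des), an Ito marker as is Col1a1, went the other way, with levels given below. Summed Ito markers were 14.96, 14.25, 14.58 and 16.81 in TM replicates 1 to 4, and summed Kupffer markers 9.69, 8.01, 7.66 and 9.93. The part of other cells in the Krt8 levels was not tested. Control endothelial cells had a mean of 10.72 ± 0.01 (SD, n = 4). The tumors lay below the mean of the liver cells by 3.27 ± 0.52 (SE, limma adjusted p 4.43e-06), a comparison that mixes slides. Against Kupffer cells of the same slide Krt8 was not called, at -1.79 ± 0.90 in TM (limma adjusted p 0.123) and 0.53 ± 0.90 in TP (limma adjusted p 0.702). The second Krt8 probe followed the first with r = 0.98 over 32 channels and fell by 2.93 in tumors (limma adjusted p 4.39e-06). Over the same channels, Krt18 resembled the first Krt8 probe with r = 0.71, the highest value for any other keratin gene.

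**Figure D2:**
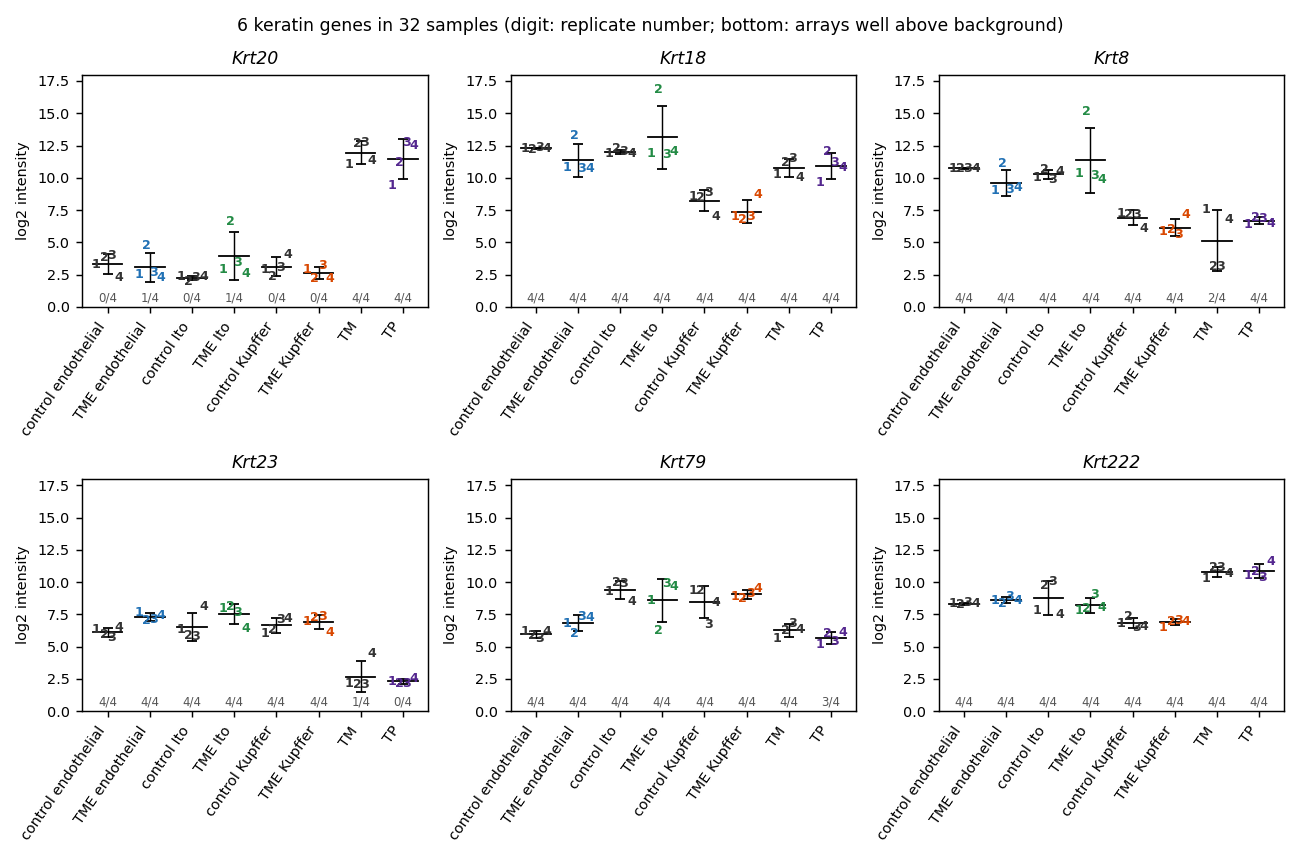
Log2 levels of 6 keratin genes (panels) in each of 8 groups, with a digit per sample giving its replicate number and a bar for the mean ± SD (n = 4). Krt20 and Krt222 are higher in all tumor samples than in all liver cell samples, Krt23 is lower, and Krt18 and Krt8 peak in TME Ito replicate 2.

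The remaining simple keratins, Krt7 and Krt19, were at the limit of the arrays. Krt7 levels were 3.45, 5.39, 4.35 and 4.3 in TM and 4.34, 5.09, 4.42 and 4.73 in TP, and at most 3.26 in liver cells. All tumor samples lay above all liver cell samples, with a difference of 1.97 ± 0.17 (SE, limma adjusted p 4.99e-11). Within the slide the difference was 1.83 ± 0.29 in TM (limma adjusted p 6.54e-06) and 1.92 ± 0.29 in TP (limma adjusted p 2.72e-06). Just 1 of the 8 tumor channels was well above background, TM replicate 2. Krt19 was not called in tumors. Its highest levels were 7.47 in TME Ito replicate 2 and 6.01 in TME endothelial replicate 2.

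Krt23, counted here with the stratified keratins, fell in tumors. It is a type I keratin that is known to respond to injury of the liver. It was well above background in all 24 liver cell channels, with levels of 5.99, 6.31, 7.07 and 7.21 in control Kupffer cells and 6.95, 7.23, 7.37 and 6.12 in TME Kupffer cells. In TM the values were 2.11, 2.05, 2.07 and 4.43, of which 1 was well above background, and in TP 2.32, 2.14, 2.18 and 2.56, of which none was. No tumor sample reached the lowest liver cell sample. The differences were -3.98 ± 0.49 for TM (SE, limma adjusted p 1.21e-07) and -4.62 ± 0.49 for TP (limma adjusted p 7.75e-09). Its level in TME Kupffer cells was at least 2.89-fold that in TP.

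Krt79, a type II keratin of the hair follicle opening, set the liver cells apart from one another. Control Ito cells read 9.27, 9.99, 9.88 and 8.46 and control endothelial cells 6.19, 5.88, 5.62 and 6.17. Every Ito sample lay above every endothelial sample, with a difference of 3.43 ± 0.58 between means of 9.4 and 5.96 (SE, limma adjusted p 0.000228), on 1 slide and in 1 dye. Of the 68 keratin probes it was the 1 called between these groups, where 9.89% of all probes were called. In the TME cells the means were 8.6 in Ito and 6.86 in endothelial cells (limma adjusted p 0.0652), and TME Ito replicate 2, at 6.25, lay with the endothelial samples. Kupffer cells read 9.32, 9.38, 6.73 and 8.41 in controls and 8.87, 8.74, 9.09 and 9.52 in TME. TM (mean 6.25) was lower than control Kupffer cells by 2.21 ± 0.58 (limma adjusted p 0.00293) and TP (mean 5.66) lower than TME Kupffer cells by 3.39 ± 0.58 (limma adjusted p 2.09e-05). Control Kupffer replicate 3, at 6.73, lay within the range of TM, and all TP samples lay below all TME Kupffer samples. Over the 24 liver cell channels Krt79 and the summed hepatocyte markers had r = 0.55. Summed Kupffer markers were 15.19 to 15.82 in control endothelial, 15.97 to 16.6 in TME endothelial and 16.39 to 18.68 in control Ito cells. They were 14.45 in TME Ito replicate 2 and 16.55 to 18.41 in the other TME Ito samples. In Kupffer cells they were 17.32, 17.31, 16.18 and 18.96 in controls and 17.43 to 18.48 in TME. The part of hepatocyte and Kupffer cell RNA in the Krt79 levels was not tested.

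Krt222, a small keratin-like gene of the type I cluster, was higher in tumors. Levels were 10.31, 11.12, 11.11 and 10.67 in TM and 10.54, 10.83, 10.38 and 11.59 in TP. Control Kupffer cells read 6.82, 7.33, 6.52 and 6.57 and TME Kupffer cells 6.52, 6.98, 7.04 and 6.97. The difference was 3.99 ± 0.40 for TM, or 15.9-fold, and 3.96 ± 0.40 for TP, or 15.5-fold (SE, limma adjusted p 3.1e-09 and 3.18e-09). Endothelial and Ito cells lay between, with group means of 8.19 to 8.76, and the highest of their samples, at 10.05, was below every tumor sample. A second Krt222 probe was well above background in no channel. Over 32 channels the keratins whose pattern was most like that of Krt20 were Krt73 (r = 0.90), Krt7 (r = 0.88), Krt12 (r = 0.87), Krt222 (r = 0.80) and Krt85 (r = 0.79). These correlations rest on the same tumor and liver cell split.

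Further stratified keratins were called. Krt12, the type I keratin of the cornea, read 6.27, 3.23, 3.91 and 5.67 in TM and 3.41, 4.86, 6.96 and 6.79 in TP, and at most 2.48 in liver cells. It was well above background in 2 TM and 2 TP samples and in no liver cell sample. TM was called above control Kupffer cells (limma adjusted p 0.000169) and TP above TME Kupffer cells (limma adjusted p 3.72e-06). The folds computed as for Krt20 were 1.67 and 2.17. They count tumor samples that were not above background, so they are not strict bounds. A second Krt12 probe was well above background in no channel. Krt10, of the suprabasal epidermis, rose in TM by 1.49 ± 0.44 over control Kupffer cells (SE, limma adjusted p 0.00732) and in TP by 1.29 ± 0.44 over TME Kupffer cells (limma adjusted p 0.0184). Control Kupffer replicate 3, at 5.3, lay apart from the other 3 at 8.1 to 8.42. Krt14, of basal cells, rose in TP by 0.78 ± 0.23 (limma adjusted p 0.0069), while in TM it was 0.43 ± 0.23 above control Kupffer cells (limma adjusted p 0.162). Its usual partner Krt5 was not called in these comparisons, with means of 4.18 in TM and 4.43 in control Kupffer cells.

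Krt16 and Krt2 moved the other way. Krt16, a type I keratin of activated keratinocytes, read 7.19, 7.32, 7.19 and 7.49 in TM against 8.81, 8.7, 8.85 and 9.28 in control Kupffer cells, a fall of 1.61 ± 0.44 (SE, limma adjusted p 0.00393). In TP it was 1.48 ± 0.44 below TME Kupffer cells (limma adjusted p 0.00724). Krt2, of the upper epidermis, was lower by 1.42 ± 0.26 in TM (limma adjusted p 5.15e-05) and by 1.67 ± 0.26 in TP (limma adjusted p 4.81e-06). For both genes no tumor sample reached the level of its Kupffer group. One Krt6b probe, above background on all Kupffer arrays and on no tumor array, was lower by 1.32 ± 0.34 in TM (limma adjusted p 0.00264) and by 1.67 ± 0.34 in TP (limma adjusted p 0.000201), with a bound of at least 1.36-fold in both. The Krt6b probe of highest variance had r = 0.21 with it over 32 channels and was well above background in 4 of them. Its means were 2.31 in TM, 3.24 in control Kupffer cells, 2.66 in TP and 2.91 in TME Kupffer cells. Krt76, of the oral epithelium, was called higher in TP (2.60 ± 0.61, limma adjusted p 0.000893) but rested on 1 sample well above background, at 7.16. Against all liver cells Krt80 rose by 1.20 ± 0.21 (limma adjusted p 1.59e-05), but against Kupffer cells of the same slide it was not called, at 0.65 ± 0.36 in TM (limma adjusted p 0.165) and 0.34 ± 0.36 in TP (limma adjusted p 0.505). Krt17, which was well above background in no channel, was lower against all liver cells by 0.68 ± 0.23 (limma adjusted p 0.0145).

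Of the hair and root sheath keratins, Krt73 was higher in both tumor types. It read 8.32, 8.26, 8.03 and 8.27 in TM and 8.13, 8.41, 8.44 and 8.46 in TP, and 7.23 to 7.57 in the 8 Kupffer samples. The rise was 0.81 ± 0.13 in TM (SE, limma adjusted p 7.67e-06) and 1.05 ± 0.13 in TP (limma adjusted p 1.01e-07). Krt28 fell, by 1.30 ± 0.44 in TM (limma adjusted p 0.0191) and by 1.59 ± 0.44 in TP (limma adjusted p 0.004). With normexp background correction and quantile normalization, these differences were -0.32 and -0.29 and no longer called. Krt28 was well above background on 1 TM and 0 TP arrays, so that its level in TME Kupffer cells was at least 1.2-fold that in TP. Krt81 was lower by 1.15 ± 0.35 in TP (limma adjusted p 0.00872), where 0 of 4 arrays were well above background. The fold computed as for Krt20 was 1.21. Only 3 of 4 TME Kupffer arrays were well above background, so it is not a strict bound. In TM Krt81 was at -0.31 ± 0.35 (limma adjusted p 0.56). Krt86 was higher by 0.56 ± 0.20 in tumors against all liver cells (limma adjusted p 0.019). Without tumor replicate 2, the Krt86 difference was 0.25. Against Kupffer cells of the same slide it was not called, at 0.83 ± 0.35 in TM (limma adjusted p 0.0602) and -0.15 ± 0.35 in TP (limma adjusted p 0.788). Krt27 rose by 0.66 ± 0.17 against all liver cells (limma adjusted p 0.00159) with no channel well above background. Krt84 in TP was at -0.51 ± 0.19 (limma adjusted p 0.034), also with no channel above background, and turned to 0.08 when each channel was scaled to its 75th percentile.

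Krt85, a keratin of the hair shaft, gave results that depended on the probe. The probe with the highest variance had a median level of 10.8 over all channels, the second of 7.42 and the third of 2.01, and the first did not follow the others (r = 0.02 and 0.08 over 32 channels). The first probe rose in TM by 0.77 ± 0.29 over control Kupffer cells (SE, limma adjusted p 0.0332, lost without tumor replicate 1, at 0.53, and without tumor replicate 4, at 0.58) and in TP by 1.31 ± 0.29 over TME Kupffer cells (limma adjusted p 0.000391), while the second, also above background in all channels, was called lower in TM by 0.46 ± 0.16 (limma adjusted p 0.0209). The first probe was the 1 keratin probe without a genome position. Hair keratin genes are closely related in sequence, and binding of this probe to transcripts of related genes was not tested.

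In total, TM differed from control Kupffer cells in 18 of 68 keratin probes, 11 higher and 7 lower, or 26.5%, while 39.4% of all probes were called, 23.3% higher and 16.2% lower. TP differed from TME Kupffer cells in 21, 13 higher and 8 lower, or 30.9%, against 43.6% of all probes, 25.7% higher and 17.8% lower. Tumors differed from all liver cells in 28, 19 higher and 9 lower, or 41.2%, against 54.6% of all probes, 34.1% higher and 20.6% lower. The 33 keratin probes that were well above background in no channel are among the 68, and the difference of these shares was not tested. At the thresholds that the methods name, an adjusted p under 0.001 and at least 4-fold, the keratin counts were 4 for TM, 7 for TP and 7 for all tumors, beside 14.3%, 15.9% and 12.6% of all probes. By class, TM against control Kupffer cells had 3 higher and 0 lower of 6 simple epithelial probes, 4 higher and 5 lower of 28 stratified probes, and 2 higher and 2 lower of 30 hair and root sheath probes. The same counts for TP against TME Kupffer cells were 3 and 0, 5 and 5, and 3 and 3. Median differences over the 68 probes were 0.08 and 0.13, beside 0.08 and 0.10 over all probes. Scaling to the 75th percentile raised the median of all probes for tumors against liver cells from 0.10 to 0.5, and the calls among keratins to 36 higher and 10 lower. The share of all probes called with this scaling is not given here.

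**Figure D3:**
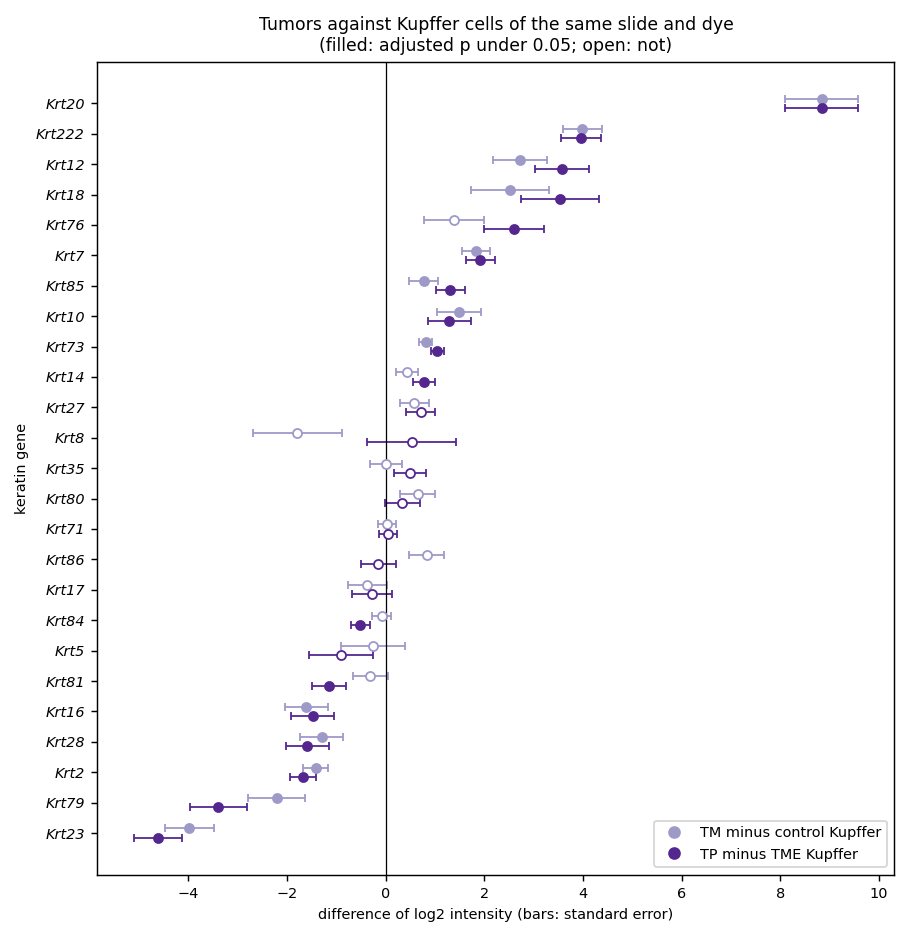
Log2 difference ± SE (n = 4 per group) of named keratin genes for TM minus control Kupffer cells and TP minus TME Kupffer cells. Krt20 lies at 8.84 in both, Krt222 near 4, and Krt23 at -3.98 and -4.62.

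TP and TM, which shared arrays, hardly differed in keratins. Of the 68 probes 1 was called, or 1.47%, beside 3.01% of all probes. At the stricter thresholds 0 were called, beside 0.408% of all probes. The 1 was a Krt40 probe (0.59 ± 0.14, SE, limma adjusted p 0.0158) that was well above background in no channel. Unadjusted, 9 probes had p under 0.05 in the limma fit, and the methods' t-test called 0 after adjustment. Shares of all probes for these counts are not given. Krt20 differed by -0.49 ± 0.74 (limma adjusted p 0.861) and Krt18 by 0.16 ± 0.79 (limma adjusted p 0.993). For Krt8 the difference was 1.56 ± 0.90 (limma adjusted p 0.411), with single arrays at -1.11, 3.82, 3.78 and -0.26.

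No keratin probe was called between TME and control cells in the limma fit to all samples. In endothelial cells 0 of 68 probes passed, with 4 at an unadjusted p under 0.05, where 1.14% of all probes were called. In Ito cells 0 passed, with 16 at an unadjusted p under 0.05, beside 0.289% of all probes, and in Kupffer cells 0 passed, with 3 unadjusted, beside 0.436%. After adjustment, the methods' t-test called 3 probes in Ito cells, 1 in endothelial cells and 0 in Kupffer cells. The 1 was Krt23, and the 3 were probes of Krt34, Krt74 and Krt2 with no Ito channel well above background. Shares of all probes for these calls and for the unadjusted counts are not given, so these counts do not set keratins apart. The differences of the TME change between cell types were also tested, and 0 keratin probes were called in each of the 3 pairs, with 3, 1 and 4 at an unadjusted p under 0.05 (endothelial against Ito, endothelial against Kupffer, Ito against Kupffer). The shares of all probes called there were 0.111%, 0.0808% and 0.00359%.

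Krt18 shows how single arrays set these values. In endothelial cells, TME minus control on arrays 1 to 4 was -1.51, 1.04, -1.63 and -1.55, with a mean of -0.92 ± 0.79 (SE, limma adjusted p 1) and of -1.57 without array 2 (limma adjusted p 0.948). In Ito cells it was -0.03, 4.60, -0.26 and 0.13, with a mean of 1.11 that fell to -0.05 without array 2. In Kupffer cells it was -1.55, -1.72, -1.83 and 1.71, with a mean of -0.85 and of -1.70 without array 4 (limma adjusted p 0.405). In each cell type 3 arrays lay close together and 1 apart. Krt8 did the same, at -1.69, 0.35, -1.64 and -1.48 in endothelial cells, 0.27, 4.51, 0.29 and -0.67 in Ito cells, while Kupffer cells gave -1.45, -1.19, -1.49 and 1.06.

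**Figure D4:**
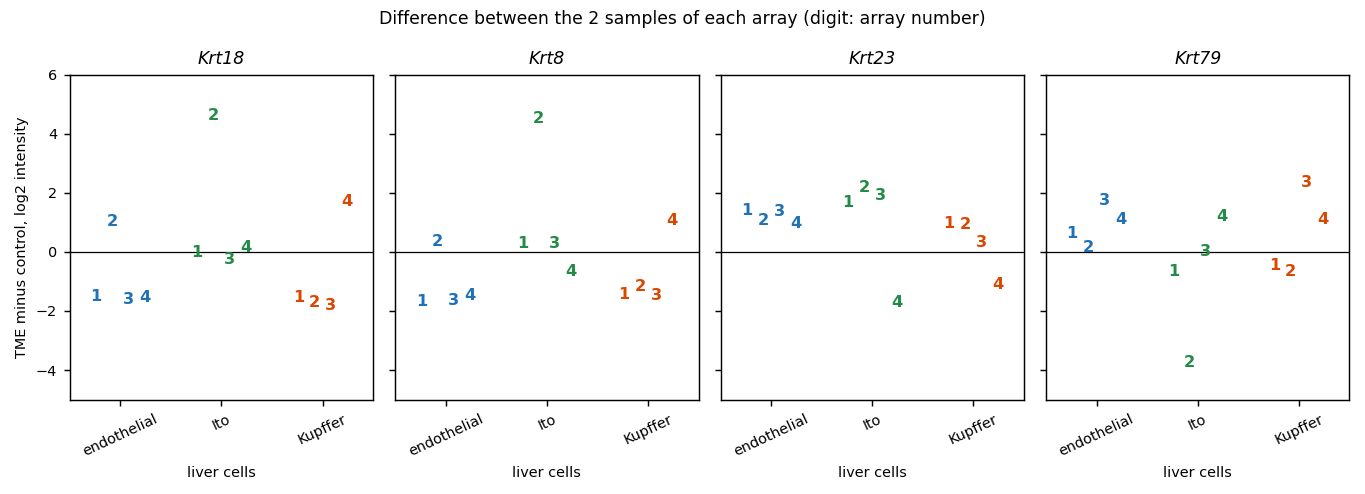
TME minus control on each array (log2 difference, 1 digit per array) for Krt18, Krt8, Krt23 and Krt79 in endothelial, Ito and Kupffer cells. Ito array 2 is far above the rest for Krt18 (4.60) and Krt8 (4.51), and array 4 is below 0 for Krt23 in Ito (-1.71) and Kupffer cells (-1.09).

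Hepatocytes express the pair strongly, and their markers were measured beside it. Summed hepatocyte markers were 15.03 to 15.27 on the log2 scale in control endothelial cells, and 13.91, 15.13, 13.79 and 13.81 in TME endothelial cells. The array with the high Krt18 was thus also the one with the high hepatocyte sum. In Ito cells the sums ran from 17.22 to 18.61 in controls and 17.32 to 18.36 in TME, where replicate 2 had the lowest value, 17.32, with the highest Krt18. In control Kupffer cells they were 16.13, 16.06, 14.15 and 15.23, and in TME Kupffer cells 15.15, 15.16, 15.09 and 16.03. Over the 24 liver cell channels Krt18 and the hepatocyte sum had r = 0.38, a description over channels that share arrays. In tumors the sums were 6.44 to 7.73, and Krt18 stood at 9.6 to 12.05. The part of hepatocyte RNA in the liver cell values was not tested.

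**Figure D5:**
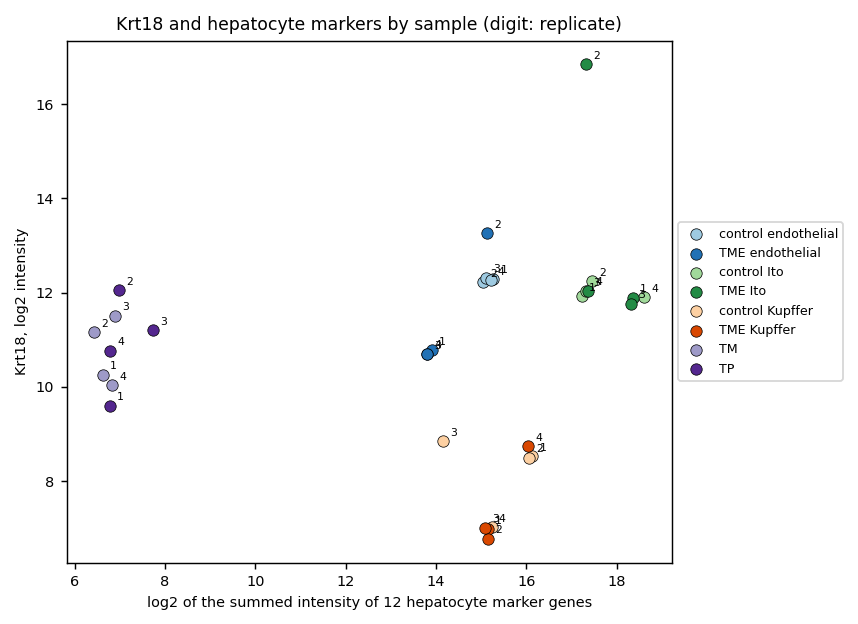
Log2 level of Krt18 against the log2 sum of 12 hepatocyte markers, 1 point per sample, coloured by group (32 samples). The 8 tumor samples have Krt18 of 9.6 to 12.05 at hepatocyte sums of 6.44 to 7.73, Kupffer samples have the lowest Krt18, and TME Ito replicate 2 (16.84) stands above all.

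TME Ito replicate 2 held many of the keratin extremes. Beside Krt18 and Krt8 it had the highest TME Ito value of Krt16 (11.47, with the others at 8.05 to 8.58), Krt85 (12.11), Krt19 (7.47), Krt20 (6.65) and Krt5 (6.76). For Krt5 the control sample on the same array was high as well, at 6.75. Krt10, at 6.43, and Krt79, at 6.25, were lowest there. Markers of the mesothelium, the simple epithelium that covers the liver, summed to 8.55 in this sample and to 6.25 to 7.54 in the other TME Ito samples, and their transcription factor Wt1 read 8.36 against 5.67 to 6.82, whereas their surface protein mesothelin (Msln) read 4.23 against 5.13, 5.04 and 2.3. In TME endothelial replicate 2 the mesothelial sum was 9.81 against 7.13 to 7.33. Of the 6 mesothelial markers, 1 was well above background on all 4 TME Ito arrays. Larger gaps were seen in some of the 9 Ito markers. Acta2 read 12.5 against 5.85 to 6.46, Des 9.87 against 5.54 to 5.71 and Col1a1 10.19 against 5.18 to 7.05. The list as a whole was not raised, with summed Ito markers of 17.21 here and 17.74, 17.88 and 16.89 in the other TME Ito samples. The tight junction gene Cldn3 read 11.49 against 3.93 to 6.44. Summed bile duct markers were 10.86 in TME Ito replicate 2 and 8.55 to 9.21 in the others. Of these 8 markers, 2 were well above background on all 4 TME Ito arrays and 4 on none, so few genes set the sum. The part of these cells in the keratin values was not tested.

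Krt23 was higher in the TME sample on all 4 endothelial arrays. In endothelial cells the 4 arrays read 1.39, 1.06, 1.38 and 0.96, TME samples (7.01 to 7.68) lay above all controls (5.74 to 6.46), and the mean was 1.19 ± 0.49 (SE, limma adjusted p 0.441). An exact permutation test of 4 against 4 gave p = 0.0286 (two-sided), the smallest value that this design allows. Any full separation of 4 from 4 gives this value, so it adds nothing to the separation, and the test does not use the shared arrays. Fitted on the endothelial samples alone, Krt23 was called (limma adjusted p 0.0194). In Ito cells the arrays read 1.68, 2.18, 1.92 and -1.71, and the mean was 1.02 ± 0.49 (limma adjusted p 0.499). Without array 4 it was 1.93 and called (limma adjusted p 0.0109), as were Krt17 (1.77, limma adjusted p 0.00392), Krt16 (1.59, limma adjusted p 0.0466), Krt85 (1.05, limma adjusted p 0.0451) and Krt2 (0.92, limma adjusted p 0.0467), all higher in TME. Krt17 was well above background in no channel. With Ito arrays 2 and 4 and Kupffer array 4 left out, 1 probe was called in Ito cells, that of Krt84 (0.85, limma adjusted p 0.00879), which is well above background in no channel. Shares of all probes called in these fits are not given, so these calls do not set keratins apart. In Kupffer cells the Krt23 differences were 0.95, 0.92, 0.30 and -1.09.

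Endothelial and Ito cells from the TME differed in 5 keratin probes, 2 higher and 3 lower in endothelial cells, or 7.35%, beside 8.26% of all probes, 4.78% higher and 3.48% lower. At the stricter thresholds 0 were called, beside 0.871% of all probes. Unadjusted, 13 keratin probes had a p under 0.05 in the limma fit, and the share of all probes for this count is not given. Krt16 was lower in endothelial cells by 1.42 ± 0.44 (SE, limma adjusted p 0.0449), but without Ito array 2 the difference was -0.63 and not called. Krt2 was lower by 0.93 ± 0.26 (limma adjusted p 0.0242), and at -0.66 without that array it was not called either. One Krt6b probe was lower by 1.29 ± 0.34 (limma adjusted p 0.0175). Krt35 (1.20 ± 0.33, limma adjusted p 0.0217) and Krt71 (0.63 ± 0.18, limma adjusted p 0.03) were higher, with 1 and 0 endothelial arrays well above background.

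Genes that work with keratins were read from lists. Of all probes, 23.3% were higher and 16.2% lower in TM than in control Kupffer cells, and 25.7% higher and 17.8% lower in TP than in TME Kupffer cells, and whether a list differs from these shares was not tested. Among 16 other intermediate filament genes, 8 were higher and 2 lower in TM than in control Kupffer cells, with a median of 0.80 beside 0.08 for all probes, and the same counts held for TP against TME Kupffer cells. The light neurofilament chain Nefl read 11.18, 11.03, 11.47 and 11.12 in TM and 10.8, 11.07, 11.89 and 11.61 in TP, and was well above background in no liver cell sample. Desmin (Des), the muscle and stellate cell filament, was lower by 1.85 ± 0.74 in TM (SE, limma adjusted p 0.0487), where replicates 1 to 4 read 2.13, 5.63, 5.71 and 2.65, and by 3.61 ± 0.74 in TP (limma adjusted p 0.000189). Vimentin (Vim) was high in all samples, at 15.22 to 17.03. Of 15 desmosome genes, whose proteins anchor keratin at cell contacts, 0 were higher and 3 lower in TM, and 3 were higher and 3 lower in TP. The keratin anchor desmoplakin (Dsp) was well above background in no tumor sample. Of 12 plakins and hemidesmosome genes, 6 were higher and 0 lower in TM and 4 higher and 2 lower in TP, and the hemidesmosome integrin Itgb4 rose by 4.75 ± 0.42 in TM (limma adjusted p 3.78e-10). Among 16 epithelial junction genes and regulators, 1 was higher and 4 lower in TM, and 3 were higher and 5 lower in TP. The higher one in TM was the gut epithelial factor Klf5 (6.25 ± 0.58, limma adjusted p 7.48e-10).

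Promoters were read because the pair Krt8 and Krt18 and the genes Krt20 and Krt23 moved differently between tumors and liver cells. The 130 bases from 100 before to 30 after the start are given from RefSeq on GRCm38.p6, 5′ to 3′ on the gene's strand, with TATAAA on either strand in capitals.
Krt20, chr11:99438124-99438253, minus strand: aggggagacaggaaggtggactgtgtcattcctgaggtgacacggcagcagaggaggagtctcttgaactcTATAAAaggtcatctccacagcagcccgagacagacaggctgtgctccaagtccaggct
Krt23, chr11:99493091-99493220, minus strand: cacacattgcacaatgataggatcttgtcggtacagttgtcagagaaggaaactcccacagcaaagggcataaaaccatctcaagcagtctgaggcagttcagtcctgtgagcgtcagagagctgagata
Krt18, chr15:102028116-102028245, plus strand: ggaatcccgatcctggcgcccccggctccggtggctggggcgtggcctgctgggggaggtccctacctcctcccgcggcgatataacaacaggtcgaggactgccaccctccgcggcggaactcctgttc
Krt8, chr15:102004313-102004442, minus strand: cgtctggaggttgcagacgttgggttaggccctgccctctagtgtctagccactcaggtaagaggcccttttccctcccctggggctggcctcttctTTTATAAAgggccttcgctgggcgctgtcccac
The letters TATAAA stood at -29 to -24 from the start in Krt20. In Krt8 they lay across the annotated start, at -1 to 5, overlapped by a match on the other strand. In windows from 250 before to 30 after the start, TATAAA on either strand was found in 19 of 36 keratin windows, or 52.8%, and in 13.1% of 32851 windows of all genes. The letters GGGCGG, on either strand, were found in 2 of the 36 keratin windows, or 5.56%, and in 34.7% of all. The 36 windows belong to 35 keratin genes that lie in clusters of related sequence, so these shares are a description.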

How the data were processed

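The mRNA of 32 samples was measured on 16 two-colour arrays on 2 slides. The authors deposited scanner intensities per spot (Feature Extraction 10.7.3.1, mm9 positions) and a table of linear intensities per probe and sample that follows the quantile-normalized processed signal. Levels are log2 of this deposited table. The at-least fold bounds come instead from the scanner intensities, with normexp correction, loess within arrays and quantile normalization between arrays. Groups, dyes and numbers came from the labels. Background flags were read from the scanner output of each sample's own channel.

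limma 3.58.1 (lmFit, eBayes, R 4.3.3) was fitted to all 32 samples in 8 groups over 55681 probes. For a single probe, exact permutation tests of 4 against 4 were run. The methods' t-test was an alternative. Correlations are Pearson's. In simulated data, 200 of 55681 probes changed by 2 (log2) were recovered at 80.0% for TM against control Kupffer cells, with 11 false calls. The members, gene lists and tests were chosen with earlier results of these data known.

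Where a gene has several probes, the one of highest variance stands for it. Named were genes well above background on all 4 arrays of a group or called in a comparison, limited to the 25 of highest variance. Some other probes that disagree were named as well. The second probes of Krt2, Krt10, Krt12 and Krt28 were well above background in no channel. Over 32 channels they had r = -0.2, -0.02, -0.08 and 0.34 with the first. Krt34, Krt40, Krt74 and second probes were named after their values were seen. Of the 52 symbols 51 matched RefSeq, all except Krt85. Alternatives were other background corrections, scalings, filters, fits and thresholds (adjusted p under 0.001 and at least 4-fold), the shared array as a block, and each array left out. The number of arrays limits the precision. Sequences came from the array files and from RefSeq promoter tables, and some probe sequences are not reported here. Python 3.11.15 (numpy 2.4.6, pandas 2.3.3, matplotlib 3.10.9) was used for the tables and plots.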

Additional observations from a re-analysis of the deposited data

Results flagged for a closer look

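In 25 of 143 groups of 4 tested, 1 sample lay far from the other 3 by Dixon's test, where chance gives about 1 in 20 for independent tests. These tests were not independent, because several genes of the same sample are among the 25. A rate over all probes is not given. In TME Ito replicate 2 these were Krt8 (15.13), Krt18 (16.84), Krt16 (11.47), Krt5 (6.76), Krt10 (6.43, low) and Krt81 (6.59). In TME endothelial replicate 2 they were Krt20 (4.76), Krt8 (11.07), Krt18 (13.26) and Krt14 (4.59, low). Replicate 4 stood apart for Krt8 (6.06, low) and Krt14 (5.01, low) in control Kupffer cells, for Krt18 (8.74) in TME Kupffer cells and for Krt23 (4.43) in TM. In control Kupffer cells, replicate 3 was low for Krt10 (5.3) and replicate 2 stood apart for Krt86 (5.97). TME Kupffer replicate 1 stood apart for Krt222 (6.52, low) and Krt28 (4.74, high), and control Ito cells for Krt28 in replicate 2 (6.02) and Krt10 in replicate 3 (8.47). In TM the others were Krt28 in replicate 1 (1.88, low), Krt80 in replicate 3 (6.56, low) and Krt14 in replicate 3 (6.51), and in TP Krt76 in replicate 2 (7.16) and Krt73 in replicate 1 (8.13, low). The differences of the TME change between cell types gave no keratin call.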

How the results depend on the processing

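Over 54 single-gene results and 1057 values under alternatives, 961 kept their direction and side of the threshold, 95 kept only the direction, and 1 reversed, Krt84 in TP against TME Kupffer cells, at 0.08 with 75th percentile scaling. Of the 54, 42 held under every alternative other than the stricter threshold. Counts of called keratin probes moved as follows. Except at the stricter threshold, shares of all probes called under the alternatives are not given, so these counts do not set keratins apart. For tumors against liver cells (28) they were 46 with 75th percentile scaling, 16 with the filter on dim probes, 7 at the stricter threshold, and 26 to 31 with single arrays left out. For TM against control Kupffer cells (18) they were 11 with only the groups compared, 4 at the stricter threshold, and 15 to 19 with arrays left out. For TP against TME Kupffer cells (21) they were 7 at the stricter threshold and 18 to 22 with arrays left out. For TP against TM (1) they were 0 with 75th percentile scaling, both normexp corrections, the filter, only the groups compared, the methods' t-test and the stricter threshold, 2 without the 3 arrays that stand apart, and 1 to 4 with single arrays left out. For TME against control (0 each), endothelial cells had 1 with only the groups compared and 1 by the methods' t-test, and 0 to 1 with arrays left out. Ito cells had 3 by the methods' t-test, 1 without the 3 arrays that stand apart, and 0 to 5 with arrays left out, and Kupffer cells had 0. For control endothelial against control Ito cells (1) the count was 3 with 75th percentile scaling. For TME endothelial against TME Ito cells (5) it was 9 with 75th percentile scaling, 0 with only the groups compared, 0 at the stricter threshold, and 2 to 5 with arrays left out. The cause of these moves was not tested, beyond the fewer probes or samples that some settings use. The choice of the 3 arrays was made after seeing the data, from whole-array measures. With the shared array as a replicate block (consensus correlation 0.078), the counts in the order above were 28, 18, 22, 2, 0, 0, 0, 1 and 5. Samples of the same number share an array within a cell type, and the correlations of their deviations from the group means ran from -0.64 to 0.4. The keratins at or near background have no reliable order.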

Other observations

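For 3 keratin probes both dyes of 1 Ito array were high and the other Ito arrays low. The Krt42 probe read 7.36 in Cy3 and 7.01 in Cy5 on Ito array 1, with no other Ito array above 2.0 in Cy3. A Krt6b probe read 8.89 and 8.44 on Ito array 2, where the highest values of the other Ito arrays were 2.97 and 3.35. Krt9, the keratin of palm and sole skin, read 11.01 and 8.71 on Ito array 3, beside at most 3.1 and 4.12 on the other Ito arrays.

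Mesothelin (Msln), the surface protein of mesothelial cells, read 13.46, 13.82, 13.94 and 13.34 in TM and 13.59, 13.42, 13.29 and 13.34 in TP, and it alone carried the mesothelial sum in tumors, which was 13.31 to 13.95. The gut lectin Lgals4 read 7.15, 9.62, 10.06 and 7.71 in TM and 8.0, 7.49, 7.31 and 7.33 in TP. The gut transcription factor Cdx2 was well above background in no channel.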
